A study of Mus musculus with 47 samples.

Results

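The genes described here are 50 mitosis and spindle genes, chosen by symbol, and all 50 were found among the 22632 genes of the deposited expression table. The table holds messenger RNA levels from 47 mouse libraries of fibroblasts taken through secondary reprogramming, in which doxycycline switches on the reprogramming factors. There were 4 SC clones and 4 SI clones, which the series title's wording on stabilization competency lets one read as stabilization competent and incompetent, though the labels do not spell the letters out. Both classes were sampled after 14 and 21 days with doxycycline (d14, d21), after 21 days with it and 1 or 2 days without (d22, d23), and after 27 days with it (d27). SC clones were also sampled as iPS cells, after 21 days with the drug and 6 without. Another 3 libraries came from feeder cells, mouse embryonic fibroblasts that had no doxycycline. Each SC or SI library is 1 clone at 1 point, so n = 4 per group, and n = 3 for feeders. Whether the feeders had been growth-arrested is not stated in the labels.

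Mitosis begins when CDK1 bound to cyclin B drives chromosome condensation, nuclear envelope breakdown and spindle assembly. Kinetochores, built on centromeric nucleosomes that hold CENP-A, tie the chromosomes to spindle microtubules, and the spindle checkpoint holds back the ubiquitin ligase APC/C until every chromosome is attached. Transcripts of most of these genes accumulate in G2 and mitosis and are low in resting cells, through promoters with CCAAT boxes and a cell cycle genes homology region (CHR) that are read by the NF-Y, MuvB, B-Myb and FOXM1 proteins. Rapid cell division is a known feature of mouse pluripotent cells, and resting fibroblasts hold these transcripts at low levels. In bulk RNA, fewer dividing cells and less mitotic RNA per cell cannot be told apart.

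Promoter sequence is shown for 7 members because nearly the whole set moved together. RefSeq windows of 300 bases (250 before to 50 after the annotated start, build GRCm38.p6) were held for 41 of the 50 members, in 44 windows. A CHR (TTTGAA or TTCGAA, either strand) was in 34 of the 44 windows, 77.3%, against 19.2% of all 32851 windows in the table. A CCAAT box (CCAAT, either strand) was in 33 windows, 75.0%, against 37.4% of all windows. Both were in 30 windows, 68.2%, against 7.5% of all. An E2F-like motif (any of TTTCGCG, of TTTGGCG, of TTCCCGC and of TTCGCGC, on either strand, the first and last of which can overlap) was in 6 windows, 13.6%, against 7.8%. The lines below run from 120 bases before to 10 after the start, 5′ to 3′ on the gene's strand, with each CHR and CCAAT box in capitals. ATTGG and TTCAAA are the same motifs read on the other strand. Cdk1, Ccnb2, Cdc20, Kif11 and Top2a carry both motifs and moved with the set, Ccnb1 has CCAAT boxes but no CHR in its window, and Bub3 carries both and moved least of all.

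Cdk1 (chr10:69352903-69353032, minus strand): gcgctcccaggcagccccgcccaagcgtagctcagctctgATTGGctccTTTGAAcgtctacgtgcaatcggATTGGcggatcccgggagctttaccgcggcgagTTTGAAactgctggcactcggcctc
Ccnb1 (chr13:100786477-100786606, minus strand): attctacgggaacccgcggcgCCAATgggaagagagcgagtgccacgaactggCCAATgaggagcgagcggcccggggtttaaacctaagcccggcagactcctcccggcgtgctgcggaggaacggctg
Ccnb2 (chr9:70421545-70421674, minus strand): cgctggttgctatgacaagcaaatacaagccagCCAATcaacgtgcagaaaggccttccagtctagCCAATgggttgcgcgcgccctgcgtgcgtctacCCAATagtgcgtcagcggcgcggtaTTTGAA
Cdc20 (chr4:118437334-118437463, minus strand): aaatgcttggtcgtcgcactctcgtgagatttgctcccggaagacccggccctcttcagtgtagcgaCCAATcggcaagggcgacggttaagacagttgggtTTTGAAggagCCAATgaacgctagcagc
Kif11 (chr19:37376262-37376391, plus strand): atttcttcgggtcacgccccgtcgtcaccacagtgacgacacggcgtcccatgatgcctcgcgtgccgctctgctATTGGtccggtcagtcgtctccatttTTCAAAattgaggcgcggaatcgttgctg
Top2a (chr11:99024180-99024309, minus strand): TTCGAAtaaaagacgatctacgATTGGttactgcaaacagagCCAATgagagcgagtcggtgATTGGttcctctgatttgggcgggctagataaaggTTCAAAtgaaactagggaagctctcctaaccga
Bub3 (chr7:131560250-131560379, plus strand): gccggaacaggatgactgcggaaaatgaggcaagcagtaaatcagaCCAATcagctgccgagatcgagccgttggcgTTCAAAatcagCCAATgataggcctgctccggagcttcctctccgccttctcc

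In Ccnb2 the CCAAT boxes begin at -87, -54 and -21 relative to the start. A match is a description of letters and shows no binding. In SI clones the 31 genes with a CHR in a window had a median d23 minus d21 difference of -1.95 on the log2 scale and the 10 without had -1.97. For SC minus SI at d23 the medians were 2.12 with and 1.89 without.

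The values are RPKM, reads scaled to transcript length and library size, so levels can be compared between genes. The spacing of low values gave depths of about 26.8 to 98.2 megareads, up to a whole multiple, in the 42 libraries where it could be read. Clone SC2 stood apart among SC libraries and clone SI3 among SI libraries. SC2 had the lowest value of all 50 members at d23 and in iPS cells, and SI3 had the lowest of all 50 at d22 and d23 and the highest of 44 at d27. Results that rest on these clones are given with and without them. Leaving out both clones was chosen after seeing their values, so counts without them are no separate support. Counts from unblocked fits with a library or clone left out have no share of all genes beside them. A rise in such a count is therefore not read as particular to the members.

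The mean log2(RPKM + 1) over the 50 members is given first, by class and sampling point. In SC clones it was 3.80 ± 0.27 (SD, n = 4) at d14, 4.80 ± 0.05 at d21, 4.37 ± 0.23 at d22, 4.54 ± 0.76 at d23, 4.76 ± 0.09 at d27 and 4.72 ± 0.31 in iPS cells. In SI clones it was 3.96 ± 0.64 at d14, 4.54 ± 0.08 at d21, 3.42 ± 0.51 at d22, 2.62 ± 0.55 at d23 and 4.63 ± 0.12 at d27. In feeders it was 2.36 ± 0.05 (n = 3). The d23 libraries of the SC clones held 4.60 (SC1), 3.45 (SC2), 4.95 (SC3) and 5.16 (SC4), and those of the SI clones held 3.04, 2.63, 1.83 and 2.97 (SI1 to SI4). All SC values lay above all SI values at d23, with the gap between SC2 and SI1 the narrowest.

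**Figure D1:**
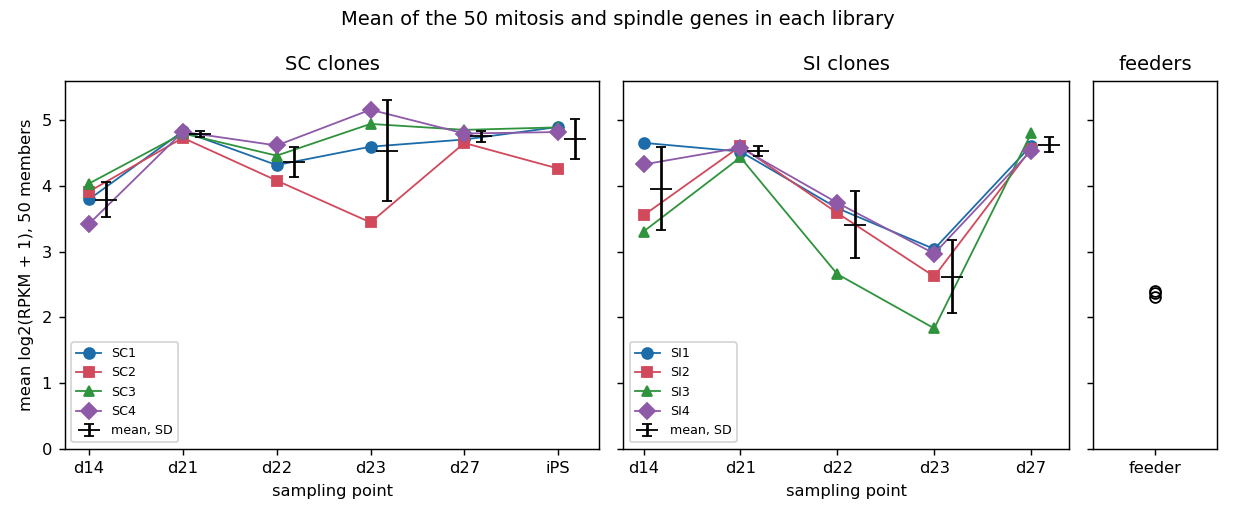
Mean log2(RPKM + 1) of the 50 members in each library (y axis) at each sampling point (x axis), with lines joining a clone's libraries and black bars for the group mean and SD. SI clones fell from d21 through d22 to d23 (means 4.54, 3.42 and 2.62), while SC1, SC3 and SC4 dipped at d22 and SC2 continued down to 3.45 at d23.

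Members were alike in their pattern over the 47 libraries. Pearson's r of a member with the mean of the other 49 was highest for Ncapd2, a condensin subunit, at 0.99, and for Plk1, the polo-like mitotic kinase, at 0.99. These r values are descriptions, since libraries of one clone and one group are not independent. It was lowest for Foxm1, the forkhead factor of the G2 and M programme, at 0.75, followed by Bub3, a checkpoint protein, and the kinesin Kif20a at 0.87 each. Bub3 also had the smallest range, 1.20 on the log2 scale, against 5.13 for Top2a, the topoisomerase that untangles sister chromatids. Per length, Top2a was the most abundant member in SC clones from d21 on (89.6 RPKM at d21) and Cdc20, the APC/C activator, in SI clones at d21 (72.1 RPKM). Cdc25c, a phosphatase that activates CDK1, was the lowest in SC clones at d21 (9.48 RPKM). All 50 members reached 1 RPKM in every library of 11 groups, and 45 did so in all 4 SI d23 libraries.

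**Figure D2:**
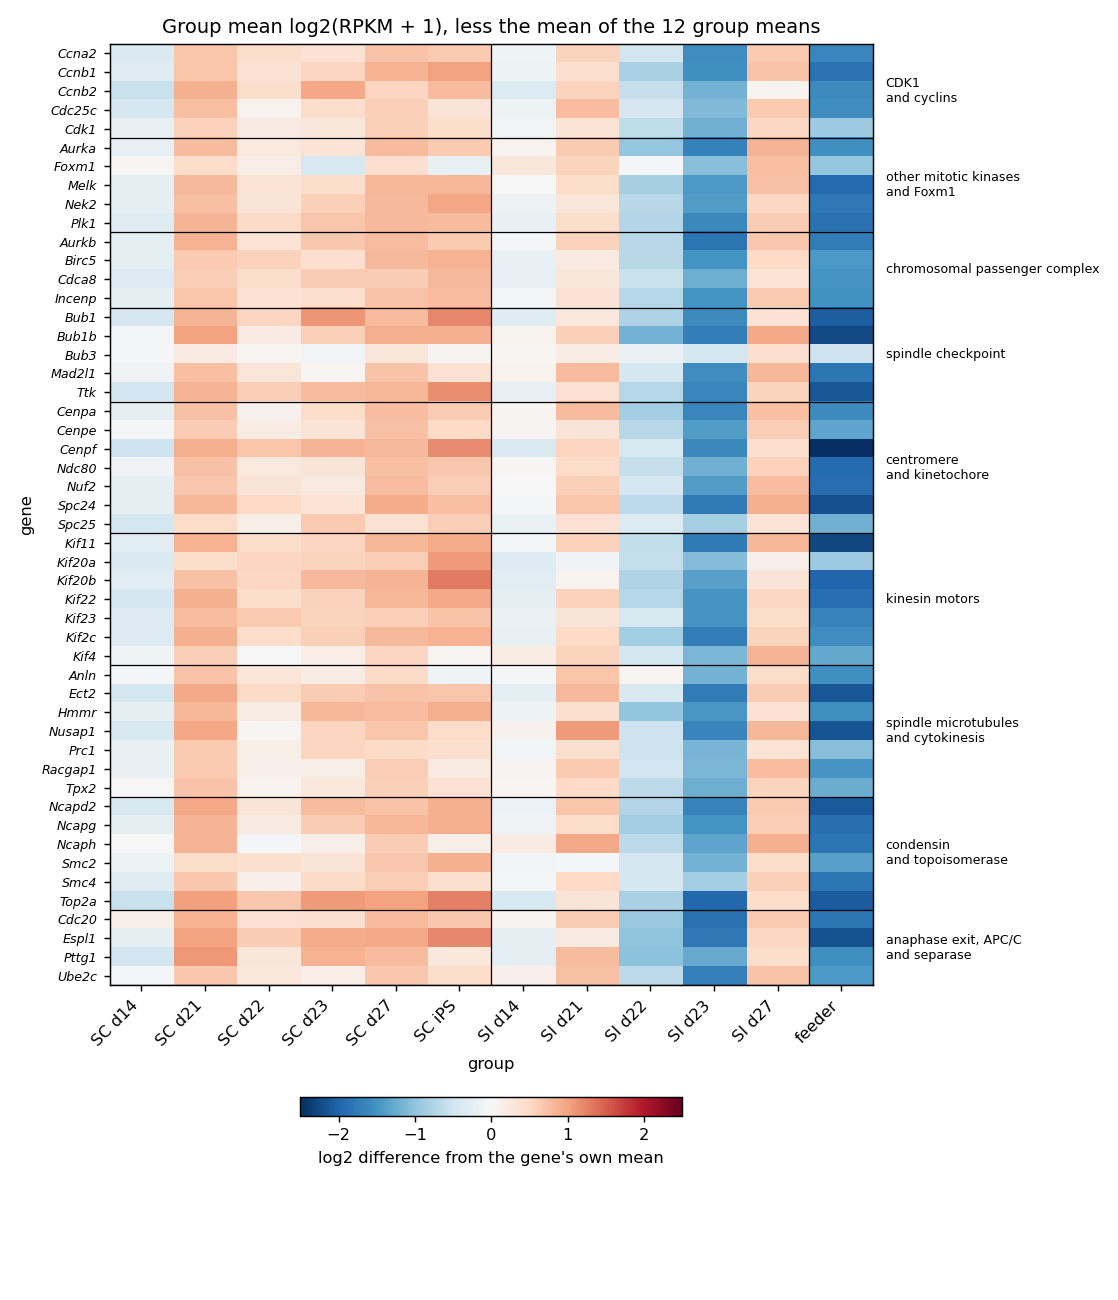
Group mean log2(RPKM + 1) of each member (rows, by role) in the 12 groups (columns), less the gene's own mean over the groups; red is above it and blue below. SI d23 and feeder columns are the bluest, Bub3 is pale throughout, and Foxm1 lies below its own mean in SC d23 and SC iPS.

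Mitosis genes were higher in SC than in SI clones at d23, 2 days after doxycycline was withdrawn. There 49 of 50 members were called higher in SC (limma on log2(RPKM + 1), Benjamini-Hochberg adjusted over 11805 genes tested, threshold 0.05), against a background of 23.0% of all genes tested called higher, and 0 were lower. Only the spread from clone to clone enters these p-values. The median member difference was 2.01 on the log2 scale, against -0.01 over all genes, and the adjusted p of the 50 ran from 0.0221 to 0.0679. The 4 SC values lay above the 4 SI values for 49 members, as they did for 21.2% of all genes tested. Bub3, in the checkpoint group, was the exception in both counts.

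Among CDK1 and the cyclins, all 5 members were called. Cdk1, the kinase that drives entry into mitosis, was at 30.0, 12.8, 32.9 and 42.4 RPKM in SC1 to SC4 and at 12.3, 8.93, 5.58 and 10.7 RPKM in SI1 to SI4. SC2 was just above the highest SI clone and the other SC clones were well above it. The log2 difference was 1.49 ± 0.36 (SE, adjusted p = 0.0249). Ccnb1, its main cyclin partner, was at 17.6, 6.14, 19.0 and 22.9 RPKM in SC clones and at 3.98, 2.93, 1.07 and 3.92 in SI clones. It differed by 2.08 ± 0.42 (adjusted p = 0.0221), with no overlap. Ccnb2 differed by 2.15, Ccna2 by 1.90 and Cdc25c by 1.53.

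The other kinases followed. Plk1 was at 47.7, 19.7, 76.8 and 84.8 RPKM in SC clones and at 14.5, 10.7, 3.58 and 12.6 in SI clones, a log2 difference of 2.31 ± 0.52 (adjusted p = 0.0231). Aurka, the centrosomal Aurora kinase, differed by 2.03, Nek2, which separates centrosomes, by 2.00 and the kinase Melk by 1.88. Foxm1 differed by 0.67 ± 0.22 (adjusted p = 0.0416), the smallest called difference of the set. In the chromosomal passenger complex, which corrects faulty attachments, Aurkb was at 16.5, 6.58, 32.9 and 38.5 RPKM in SC clones and at 4.12, 2.65, 1.14 and 3.32 in SI clones. Its difference of 2.5 ± 0.51 (adjusted p = 0.0222) was the largest of the complex. Its partners Incenp, Birc5 (survivin) and Cdca8 (borealin) differed by 1.91, 1.91 and 1.85.

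In the spindle checkpoint, 4 of 5 members were called. Bub1, a checkpoint kinase, was at 27.9, 9.18, 44.9 and 49.1 RPKM in SC clones and at 4.71, 3.59, 1.4 and 4.98 in SI clones. The SC mean was 8.93 times the SI mean, and the log2 difference was 2.70 ± 0.52 (adjusted p = 0.0221). Bub1b, Ttk and Mad2l1 differed by 2.32, 2.42 and 1.60. Bub3, which carries BUB1 and BUB1B to kinetochores, was at 44.3, 33.2, 44.4 and 48.4 RPKM in SC clones and at 32.4, 33.7, 28.2 and 35.6 in SI clones. The groups overlapped, and the log2 difference was 0.37 ± 0.15 (adjusted p = 0.0679), below the threshold.

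All 7 centromere and kinetochore genes were called. Cenpa, the centromeric histone H3 variant, was at 25.2, 9.06, 30.6 and 36.6 RPKM in SC clones and at 6.18, 4.56, 2.45 and 5.98 in SI clones, a log2 difference of 2.09 ± 0.42 (adjusted p = 0.0221). Ndc80, the microtubule-binding kinetochore subunit, differed by 1.53 ± 0.40 (adjusted p = 0.0273), with 14.5, 6.31, 16.7 and 21.8 RPKM in SC clones and 6.04, 4.36, 1.70 and 5.35 in SI clones. For Ndc80, SC2 lay just above SI1, with no overlap. Its partners Nuf2, Spc24 and Spc25 differed by 1.62, 2.12 and 1.49, and Cenpe and Cenpf by 1.74 and 2.46.

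All 7 kinesins, the motor proteins that build and use the spindle, were called, from 1.31 for Kif4 to 2.32 for Kif2c. Kif11, which slides the spindle poles apart, was at 27.0, 10.4, 29.3 and 34.0 RPKM in SC clones and at 6.65, 3.53, 1.4 and 5.67 in SI clones, a log2 difference of 2.31 ± 0.45 (adjusted p = 0.0221). Among the 7 genes of spindle microtubules and cytokinesis, differences ran from 1.29 for Racgap1, of the centralspindlin complex, to 2.38 for Ect2, the activator of RhoA at the cleavage furrow. Tpx2, which activates Aurora A on the spindle, differed by 1.48 ± 0.32 (adjusted p = 0.0227). Anln, the contractile ring scaffold anillin, differed by 1.36 ± 0.37 (adjusted p = 0.0291), with 36.5, 23.8, 57.0 and 70.5 RPKM in SC clones and 23.0, 15.2, 9.42 and 20.9 in SI clones. The SC2 and SI1 values of Anln nearly met.

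Chromosome structure genes held the largest difference of all. Top2a was at 72.9, 26.5, 174 and 188 RPKM in SC clones and at 16.5, 9.57, 4.42 and 13.8 in SI clones. Within SC it split into a high pair, SC3 and SC4, and a low pair, SC1 and SC2, with both above every SI clone. The log2 difference was 3.04 ± 0.63 (adjusted p = 0.0225), a 10.4-fold ratio of means. The condensin genes Ncapd2, Ncapg, Ncaph, Smc2 and Smc4 differed by 2.47, 2.12, 1.45, 1.49 and 1.34. Of the genes for the exit from mitosis, Cdc20 was at 64.4, 25.7, 80.1 and 99.1 RPKM in SC clones and at 15.2, 12.3, 6.18 and 16.6 in SI clones, a difference of 2.26 ± 0.44 (adjusted p = 0.0221). Espl1, the separase that cuts cohesin, differed by 2.71, its inhibitor Pttg1 (securin) by 2.13 and Ube2c, a ubiquitin-conjugating enzyme of the APC/C, by 1.87.

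**Figure D3:**
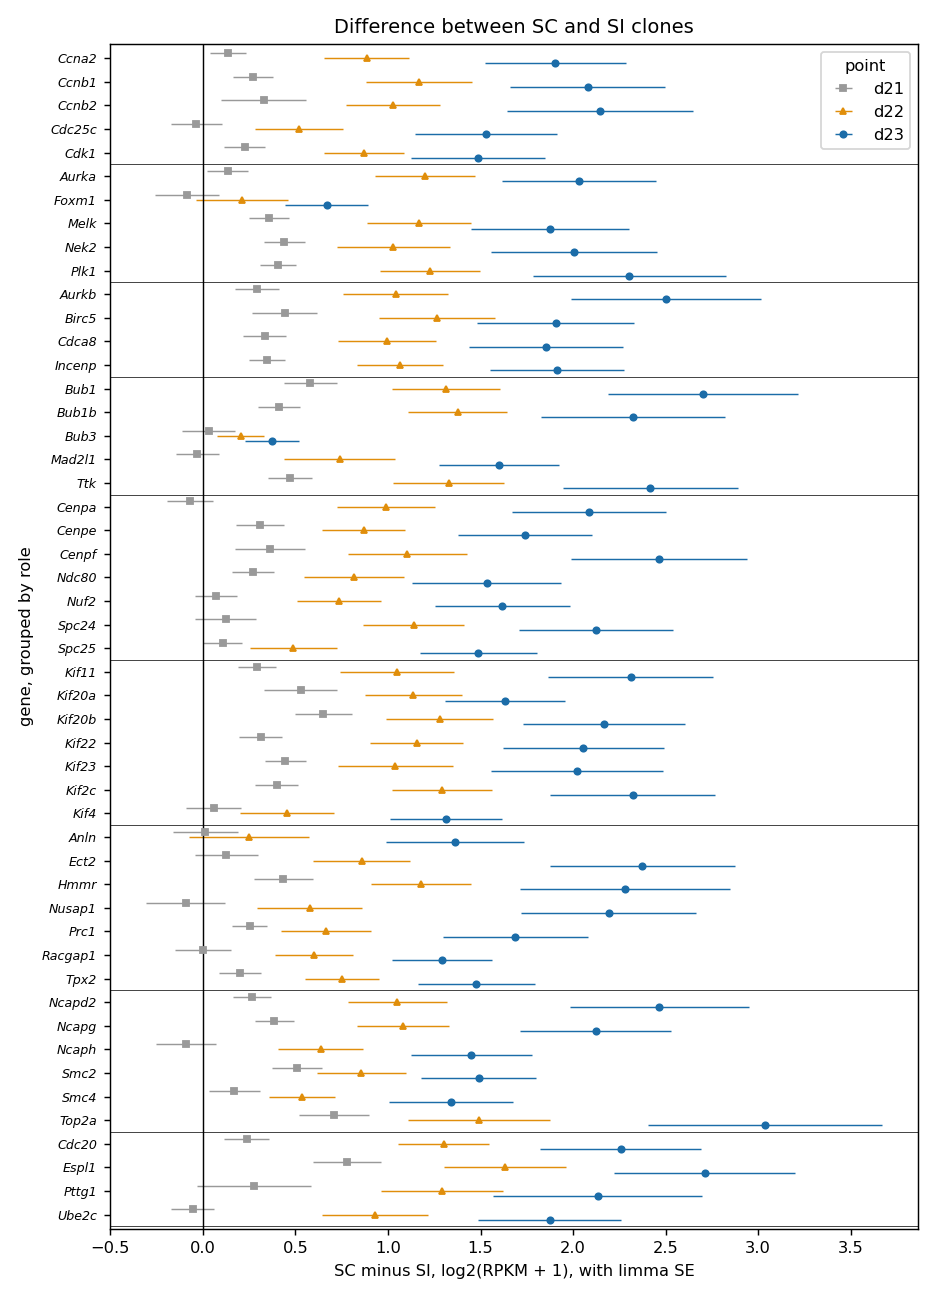
SC minus SI difference in log2(RPKM + 1) of each member (x axis, with limma SE) at d21, d22 and d23, with genes on the y axis grouped by role. The d23 points run from 0.37 for Bub3 to 3.04 for Top2a and lie to the right of the d22 points for every member, and the d21 points run from -0.09 to 0.78.

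The d23 calls sat close to the threshold, and the median difference stayed above 0 without any 1 library. Leaving out SC1, SC3, SC4, SI2, SI3 or SI4 left 0 members called, with the smallest adjusted p between 0.0507 and 0.08 in those limma fits and 49 or 50 members at an unadjusted p under 0.05 in each. Leaving out SC2 gave 50 and leaving out SI1 gave 48. The shares of all genes called with a library left out are not given here. The median over members ran from 1.71 to 2.39 in these 8 fits, and without SC2 and SI3 together 50 were called with a median of 2.07. Marker sums of fibroblasts, pluripotent cells and leukocytes did not overlap between the classes at d23, while epithelial sums did. The summed RPKM of 12 fibroblast markers, all present, ran from 4031 to 7263 in SI d23 libraries, from 914 to 3781 in SC d23 and from 5824 to 6365 in feeders. The 10 pluripotent cell markers summed to 1.18 to 30.4 RPKM in SI d23 and to 173 to 1372 in SC d23, and none of them was above 1 RPKM in every SI d23 library. The 9 leukocyte markers summed to 178 to 339 RPKM in SI d23 and to 77.4 to 153 in SC d23. Epithelial markers ran from 120 to 2392 RPKM in SI d23 and from 504 to 1388 in SC d23, and endothelial markers summed to at most 22.6 RPKM in SC d23 and 1.5 in SI d23. The part of other cells in the mitotic difference was not tested.

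**Figure D4:**
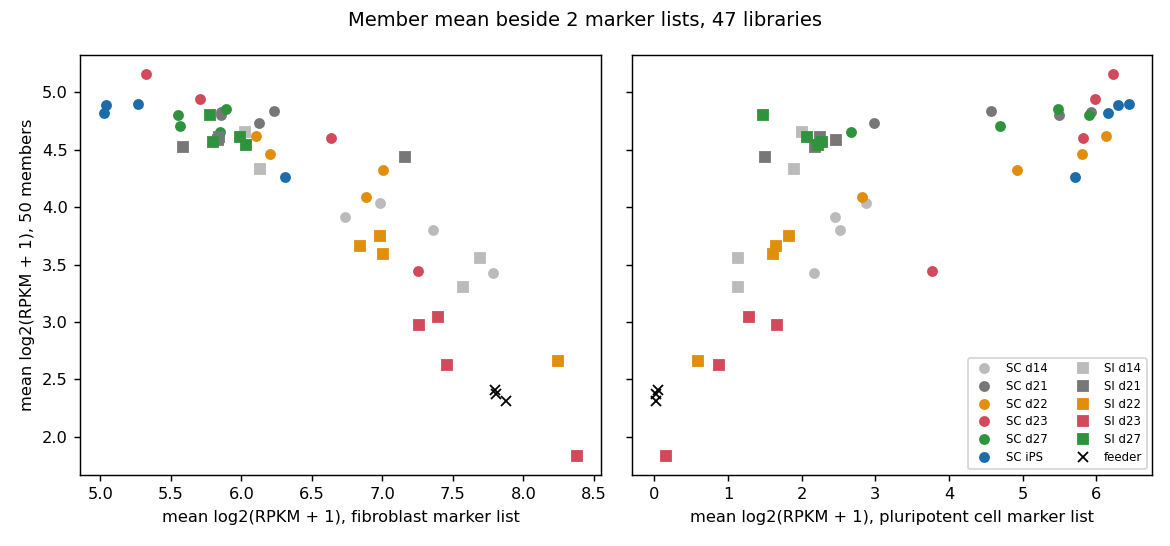
Mean log2(RPKM + 1) of the 50 members (y axis) against the mean of the fibroblast list (left) and the pluripotent cell list (right) in the 47 libraries, coloured by sampling point, with circles for SC, squares for SI and crosses for feeders. SI3 at d23 has the highest fibroblast mean (8.38) and the lowest member mean (1.83), and SC2 at d23 has the highest fibroblast mean of its group (7.25) and its lowest member mean (3.45).

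Within SI clones, mitosis genes fell over the first day without doxycycline and were lower still after the second. The comparisons with d21 share the d21 libraries. From d21 to d22, 43 of 50 members fell (limma, background 18.8% of genes lower), with a median difference of -1.14, and all 50 differences were below 0. The largest falls were those of Pttg1 (-1.82 ± 0.36, adjusted p = 0.0058), Bub1b (-1.77 ± 0.21, adjusted p = 0.000844) and Cenpa (-1.67 ± 0.25, adjusted p = 0.00189). Cenpf, Kif23, Anln, Foxm1, Kif20a, Smc2 and Bub3 did not pass, and Kif20a (-0.50), Smc2 (-0.41, adjusted p = 0.2) and Bub3 (-0.35, adjusted p = 0.0787) had the smallest differences. At d23 against d21 all 50 members were called lower (background 32.0%), with a median of -1.91 against -0.12 over all genes. All d23 values lay below all d21 values for the 50 members, as for 29.6% of all genes tested, and all 50 calls were kept without each library in turn and without clone SI3. The mean log2(RPKM + 1) of the fibroblast list was 6.11 at d21, 7.27 at d22 and 7.63 at d23 in these clones, and that of the leukocyte list was 1.78, 2.89 and 2.76. Their part in the falls was not tested.

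The d23 falls in SI clones spanned every role. Nusap1, a microtubule bundling protein, had the largest, from 24.8, 31.1, 16.1 and 27.4 RPKM at d21 in SI1 to SI4 to 4.37, 2.86, 1.08 and 4.13 RPKM at d23. Every clone lost most of its level, a log2 difference of -2.71 ± 0.32 (adjusted p = 0.00029). Ect2 (-2.55) and Cdc20 (-2.51) came next. Cdc20 went from 65.5, 76.9, 69.9 and 76.0 RPKM to 15.2, 12.3, 6.18 and 16.6 RPKM. Cenpa and Aurkb differed by -2.43 and -2.40, and Kif11 and Top2a by -2.34 and -2.29. Plk1 differed by -2.05, Ccnb1 by -1.96, Ncapg (a condensin subunit) by -1.95, Bub1 by -1.87 and Anln by -1.87. The other named members were Tpx2 at -1.72, Birc5 at -1.71, Ndc80 at -1.67, Foxm1 at -1.62 and Cdk1 at -1.55. The smallest falls were those of Smc2 (-1.13), Kif20a (-0.99 ± 0.16, adjusted p = 0.00131) and Bub3 (-0.61 ± 0.14, adjusted p = 0.00608). Bub3 went from 38.9, 55.5, 56.3 and 51.3 RPKM to 32.4, 33.7, 28.2 and 35.6 RPKM. The member mean fell by 2.60 in SI3, 1.98 in SI2, 1.61 in SI4 and 1.48 in SI1, with all 50 members lower in each clone.

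SC clones were lower for part of the set after the first day without the drug. From d21 to d22, 49 of 50 members were below 0 with a median of -0.43, and 13 were called lower (limma, background 4.75%). The 13 were Nusap1, Ncaph, Bub1b, Cdc25c, Ncapd2, Cenpa, Tpx2, Ncapg, Smc4, Prc1, Cenpe, Ect2 and Kif11, so 4 of the 6 condensin and topoisomerase genes and 4 of the 7 spindle and cytokinesis genes. Nusap1 went from 23.1, 27.9, 23.1 and 17.6 RPKM in SC1 to SC4 to 11.2, 13.0, 11.2 and 11.1 RPKM, a difference of -0.91 ± 0.14 (adjusted p = 0.0157). Ncaph followed with -0.87 ± 0.13 (adjusted p = 0.0138) and Bub1b with -0.81 ± 0.20 (adjusted p = 0.0469). The kinesin Kif20a (0.11), Smc2 (-0.06) and Birc5 (-0.09) stood at the other end. With clones as a block, which pairs each clone with itself, 39 were called lower (background 20.4%), and 14 (without SC1, 9.35% of all genes) to 41 (without SC4, 19.1%) when each clone was left out. Without the block the count ran from 0 (without SC3 at d21 or SC1 at d22) to 16 (without SC4 at d22). It was 1 without SC1 at d21, 2 without SC2 at d21 or SC3 at d22, 5 without SC2 at d22 and 0 without clone SC2 altogether, where 24 had an unadjusted p under 0.05. The fibroblast list's mean log2(RPKM + 1) was 6.02 at d21 and 6.55 at d22 and the leukocyte list's 1.86 and 2.42, and their part in the difference was not tested.

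On the second day the SC clones parted. Between d22 and d23, 45, 47 and 45 members went up in SC1, SC3 and SC4, with mean changes of 0.28, 0.48 and 0.55 on the log2 scale, and all 50 went down in SC2, with a mean change of -0.64. The fibroblast list's mean went from 6.89 to 7.25 in SC2, and from 7.01 to 6.63 in SC1, 6.20 to 5.71 in SC3 and 6.11 to 5.32 in SC4, and its part in the split was not tested. All 4 SI clones went down again, by 0.62 to 0.97 on average, with 49 or 50 members lower in each. Over d23 against d21 the SC group had a median of -0.28 and 1 member called lower, Foxm1 (background 2.81%). Foxm1 was at 15.4, 16.7, 12.5 and 9.24 RPKM at d21 and at 7.86, 5.52, 6.60 and 7.36 RPKM at d23, a difference of -0.86 ± 0.19 (adjusted p = 0.0469). Its groups did not overlap, but the call was lost in 7 of 8 limma fits without 1 library, all except the one without SC4 at d21. Mad2l1 and Ncaph were next lowest at -0.71 each and did not pass, and Bub1 (0.25), Spc25 (0.19) and Kif20a (0.12) were highest. Without SC2 at d23 the median over members was 0.11 and 0 were called, with 7 at an unadjusted p under 0.05.

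The class difference in these changes was tested as an interaction. For d23 minus d21, all 50 members had a larger (less negative) change in SC, with a median of 1.68. Without a block 0 of 50 were called (limma, background 0% in either direction; smallest adjusted p = 0.123), with 49 at an unadjusted p under 0.05. With clones as a block 47 were called higher in SC (background 12.4%), and 48 were called in the fit of all 47 libraries (background 8.01%). The fit of all 47 libraries shares 1 estimate of spread over groups of unlike spread. It has no term for clone, so libraries of the same clone count as independent. Top2a (2.33 ± 0.70), Nusap1 (2.29 ± 0.55) and Ect2 (2.25 ± 0.56) had the largest differences and Bub3 (0.34 ± 0.20), Foxm1 (0.75 ± 0.29) and Smc2 (0.98 ± 0.35) the smallest, as SE without the block. The blocked count was 49 without SC2 (22.3% of all genes higher), 42 without SI3 (11.9%) and 0 without SC1, SC3, SC4, SI1, SI2 or SI4 (at most 0.18%), and the unblocked count was 49 without SC2 at d23, 26 without SI3 at d21 and 49 without clones SC2 and SI3. For d22 minus d21, all 50 differences were again above 0 (median 0.73) and 0 were called (background 0%; 29 at an unadjusted p under 0.05, 2 called without clones SC2 and SI3). Aurka (1.07), Cdc20 (1.06) and Cenpa (1.06) were highest and Bub3 (0.17), Anln (0.24) and Foxm1 (0.295) lowest. Without a block, 3237 of the 12714 genes tested had an unadjusted p under 0.05 for the d23 change. For the d22 change 702 of 12644 did.

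At d22 itself all 50 members were higher in SC, with a median of 1.03, and 0 passed adjustment (limma, background 0%; smallest adjusted p = 0.1). Espl1 (1.63 ± 0.33), Top2a (1.49 ± 0.38) and Bub1b (1.38 ± 0.27) had the largest differences, and Bub3 (0.20), Foxm1 (0.21) and Anln (0.25) the smallest. SC values lay above all SI values for 44 members, against 11.4% of all genes tested, and 43 had an unadjusted p under 0.05, as did 4140 of the 11880 genes tested. The count was 38 without SC2 at d22 and 0 without any other 1 library. Without clones SC2 and SI3, a choice made after seeing the data, it was 42. The shares of all genes called in these fits are not given here. In the fit of all 47 libraries the count was 40 (background 16.7%).

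**Figure D5:**
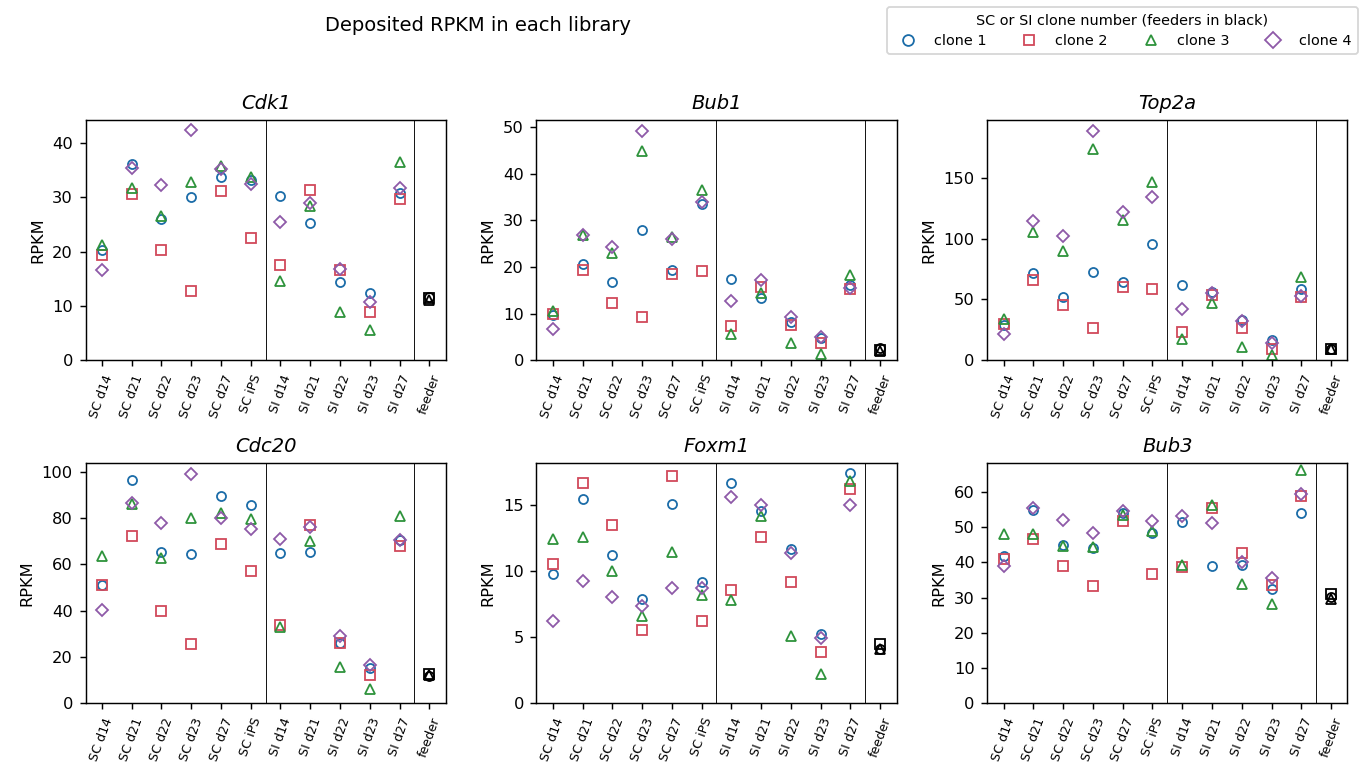
Deposited RPKM (y axis, from 0) of Cdk1, Bub1, Top2a, Cdc20, Foxm1 and Bub3 in each library of the 12 groups (x axis), with clone number by colour and shape and feeders in black. Cdk1, Bub1, Top2a and Cdc20 step down from SI d21 to d23 and are high again in the clones kept on doxycycline to d27, Top2a splits SC3 and SC4 from SC1 and SC2, and Bub3 stays between 28.2 and 66.3 RPKM.

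With doxycycline kept on, no member was called between the classes. At d21, 42 members were higher in SC (median 0.27), 0 were called (limma, background 0%; smallest adjusted p = 0.296) and 26 had an unadjusted p under 0.05. SC values lay above all SI values for 23 members, against 4.8% of all genes tested. The largest differences were those of Espl1 (0.78 ± 0.18), Top2a (0.71 ± 0.19) and Kif20b (0.65 ± 0.16), while Nusap1, Ncaph and Foxm1 were lowest at -0.09, -0.09 and -0.08. Without clones SC2 and SI3 10 were called, and 2 without SC2. At d14 the median was -0.18 and 0 were called (background 0%; 0 at an unadjusted p under 0.05), from -0.475 for Nusap1, -0.29 for Aurka and -0.285 for Kif4 to -0.01 for Espl1, 0.005 for Anln and 0.09 for Cdc20. At d27 the median was 0.10 and 0 were called (background 0.634% in either direction; 10 at an unadjusted p under 0.05), 12 without SC2 and 10 without clones SC2 and SI3. Foxm1 (-0.34), Kif4 (-0.32) and Ncaph (-0.26) were lowest there and Top2a (0.57), Kif20b (0.53) and Kif20a (0.49) highest. Of all genes tested, 1572 of 11757 at d21, 169 of 11714 at d14 and 2661 of 11513 at d27 had an unadjusted p under 0.05. The member counts at d14 and d27 were not above those shares. Shares of all genes called with libraries or clones left out are not given here.

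Mitosis genes rose in SC clones between d14 and d21, and 48 of 50 were called (limma, background 22.0%). Top2a rose from 28.9, 29.4, 34.0 and 21.9 RPKM in SC1 to SC4 to 72.1, 66.2, 105 and 115 RPKM, a difference of 1.59 ± 0.20 (adjusted p = 0.000574). Every clone was higher at d21, with no overlap. Pttg1 (1.55) and Ccnb2 (1.43) came next, and Smc2 rose by 0.60. Bub3 (0.27, adjusted p = 0.0687) and Foxm1 (0.44, adjusted p = 0.142) did not pass. The mean log2(RPKM + 1) of the fibroblast list was 7.22 at d14 and 6.02 at d21, and that of the pluripotent cell list 2.5 and 4.74, and their part in the rise was not tested. In SI clones all 50 differences were above 0 (median 0.57) but 0 were called (background 0%; smallest adjusted p = 0.246; 10 at an unadjusted p under 0.05). Ect2 (1.04), Pttg1 (1.035) and Nusap1 (0.96) had the largest differences and Smc2 (0.02), Bub3 (0.14) and Kif20a (0.23) the smallest. The SI clones differed at d14: Cdk1 was at 30.3 and 25.5 RPKM in SI1 and SI4 and at 17.6 and 14.6 RPKM in SI2 and SI3. The member mean changed by -0.13 in SI1 and 0.26 in SI4, and by 1.05 in SI2 and 1.13 in SI3. Without SI3 at d21 1 was called, and without SI1 at d14 46 had an unadjusted p under 0.05 and 0 were called. With every library kept, 2313 of the 11738 genes tested had an unadjusted p under 0.05, near the share of the members.

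In clones kept on doxycycline to d27, no member was called against d21. In SI clones 0 members were called (limma, background 0%; smallest adjusted p = 0.0929; 14 at an unadjusted p under 0.05), with Smc2 (0.49), Bub1b (0.34) and Ccnb1 (0.30) highest and Ccnb2 (-0.49), Pttg1 (-0.35) and Anln (-0.23) lowest. Without SI3 at d21 14 were called, 10 higher and 4 lower, and without clone SI3 at both points 10, of which 5 were higher and 5 lower. The shares of all genes called without SI3 are not given here. In SC clones 0 were called (background 0.00847%; smallest adjusted p = 0.334; 3 at an unadjusted p under 0.05), with Ccnb2 (-0.34), Pttg1 (-0.29) and Nusap1 (-0.27) lowest and Smc2 (0.21), Kif20a (0.18) and Ccnb1 (0.165) highest. With clones as a block 4 were called lower at d27 (background 7.14%). In the unblocked fits 3566 of the 11590 genes tested in SI clones and 1363 of 11804 in SC clones had an unadjusted p under 0.05. Neither member count was above that share of all genes.

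In SC iPS cells every member was above its level in feeders. Against feeders all 50 members were higher (limma, background 41.2%), with a median of 2.38, and all 50 were kept without each library in turn. Cenpf, a kinetochore protein of G2 and M phase, differed by 3.69 ± 0.16 (adjusted p = 7.94e-07), Espl1 by 3.37 and Top2a by 3.33. Bub1 was at 33.5, 19.2, 36.5 and 34.0 RPKM in iPS cells of SC1 to SC4 and at 2.52, 2.23 and 1.91 RPKM in feeders, a 13.9-fold ratio of means. Bub3 (0.59 ± 0.13, adjusted p = 0.00251), Foxm1 (0.79) and Kif4 (1.33) differed least. The fibroblast list's mean was 5.41 in iPS cells and 7.83 in feeders and the pluripotent cell list's 6.15 and 0.03, and their part in the difference was not tested. Against SC d27, 0 were called (background 1.62%; smallest adjusted p = 0.101; 7 at an unadjusted p under 0.05). Kif20b (0.44), Kif20a (0.44) and Bub1 (0.41) were highest and Foxm1 (-0.60 ± 0.20, adjusted p = 0.101), Anln (-0.58) and Pttg1 (-0.53) lowest. Without SC2 iPS cells 3 were called higher, and without SC4 at d27 4 were called lower. Without clone SC2 1 was called higher, and with clones as a block 1 was called higher, beside 4.21% of all genes tested in the blocked fit. The median over members was -0.03, and 0.13 without SC2 iPS cells. Of the 11675 genes tested against SC d27, 3491 had an unadjusted p under 0.05, a larger share than that of the members.

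At d23 the SI clones lay on both sides of the feeders. Against feeders 1 of 50 members was called, Smc4 of condensin, higher by 0.95 ± 0.26 (limma, adjusted p = 0.031; background 21.2% higher), and Cenpf (0.90) and Ndc80 (0.72) came next. Cdk1 (-0.30), Ube2c (-0.26) and Kif2c (-0.19) were lowest. The clones did not stand together: SI3 was below every feeder for 48 members, while SI1 was above every feeder for 48, SI4 for 46 and SI2 for 32. Of the 11741 genes tested, 4740 were below every feeder in SI3, and 5873, 6046 and 6187 were above every feeder in SI1, SI4 and SI2. Without SI3 34 members were called higher, with a median of 0.53, and the share of all genes called in that fit is not given here. Without any 1 of the other libraries 0 were called.

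Foxm1 was the member whose own course differed most from the set. Its r with the other members was 0.75, and in SC iPS cells it was at 9.19, 6.25, 8.19 and 8.71 RPKM, beside 15.0, 17.1, 11.5 and 8.71 RPKM in the same clones at d27. The clones that were low for Foxm1 at d21 and d27 were SC4 and SC3, which were the high clones for Top2a. In SI clones it was at 14.5, 12.5, 14.1 and 15.0 RPKM at d21 and at 5.22, 3.91, 2.18 and 4.93 RPKM at d23, so it fell there with the rest. Anillin was alike in part: at d27 its SC values of 62.3, 65.4, 51.1 and 38.6 RPKM were lowest in SC4, and in iPS cells it was at 42.0, 26.7, 39.4 and 35.3 RPKM.

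Other cell cycle genes were read from 5 lists. Of 62 further mitotic genes 59 were tested at d23, and 53 were higher in SC and 0 lower (median 1.36), beside 23.0% of all genes tested higher and 19.5% lower. Fbxo5, the APC/C inhibitor EMI1, differed by 2.56 ± 0.44 (limma, adjusted p = 0.0221) and the cyclin Ccnf by 2.45, and the kinetochore genes Mis12 (0.19, adjusted p = 0.193) and Zw10 (0.19, adjusted p = 0.247) did not pass. In SI clones from d21 to d23, 58 of the 62 fell, beside 32.0% of all genes tested lower and 22.7% higher, led by the shugoshin Sgo2a, which protects centromeric cohesin (72.7 ± 18.1 to 6.78 ± 3.72 RPKM, a difference of -3.38) and Fbxo5 (-2.42). Wee1 (0.60, adjusted p = 0.295) and Cenpt (0.31, adjusted p = 0.144) did not pass. Of 41 replication and S phase genes 40 were tested at d23 and 38 were higher in SC (median 1.69), led by the helicase genes Mcm3 (2.85) and Mcm5 (2.59), with Ccne2 (0.19) and Tyms (0.39) not passing. In SI clones 39 of 41 fell by d23 (median -1.35), with Gins1 (-2.42) and Mcm6 (-2.33) at one end and Rfc3 (-0.45, adjusted p = 0.123) and E2f1 (-0.42, adjusted p = 0.0411) at the other.

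Of 23 cohesin and APC/C core genes, 10 were higher in SC at d23 and 2 lower (median 0.45), beside 23.0% and 19.5% of all genes, with Smc3 (1.09) and Rad21 (0.80) highest and Anapc4 (-0.41, adjusted p = 0.0435) and Cdc16 (-0.40, adjusted p = 0.0371) lower. In SI clones 10 of the 23 fell by d23 and 2 rose, beside 32.0% of all genes tested lower and 22.7% higher. Fzr1, the late APC/C activator, was at -0.86, Rad21 at -0.85, and Anapc4 and Cdc16 at 0.35 and 0.34. Of 14 MuvB, DREAM and B-Myb regulators 10 were higher in SC at d23, beside 23.0% of all genes. Mybl2, which encodes B-Myb, differed by 3.83 ± 0.61 (limma, adjusted p = 0.0221), from 43.7 ± 27.3 RPKM in SC to 1.75 ± 1.12 in SI clones, and E2f5 by 1.10, while Nfyc (-0.22) and Rbl2 (-0.12) did not pass. In SI clones Mybl2 fell by 2.14 and Lin37 by 1.13 on the log2 scale from d21 to d23, 9 of 14 fell in all, beside 32.0% of all genes, and E2f4 (0.17) and Nfyc (0.00) did not pass.

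Of 16 G1 cyclins, kinases and CDK inhibitors, 14 were tested at d23, and 3 were higher and 5 lower in SC. All genes tested gave 23.0% higher and 19.5% lower, so the share higher was near that of all genes. Cdkn2b, the CDK4 and CDK6 inhibitor p15, was at 59.2 ± 8.6 RPKM in SI and 20.1 ± 14.8 in SC clones (log2 difference -1.77 ± 0.44, limma adjusted p = 0.0255), and Ccnd2 differed by -1.63. Cdk2 was higher in SC (0.76), and Cdkn1c (0.86, adjusted p = 0.086) did not pass. In SI clones Cdkn2b rose from 7.49 ± 3.52 RPKM at d21 to 59.2 ± 8.6 at d23 (2.89 ± 0.25, adjusted p = 9.3e-05) and Gas1, a growth arrest gene, rose by 1.55. Rb1 (-1.50) and Cdkn1b (-1.15), the inhibitor p27, fell. In all 4 were called higher and 4 lower of 16, beside 22.7% and 32.0% of all genes.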

How the data were processed

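Messenger RNA was sequenced in 47 mouse libraries. The authors deposited 1 table of values per gene and library, and its unit, RPKM, was read from the values because the labels and header do not name it. CASAVA 1.8 and build mm9 are named by the submitters' processing notes with no role stated, and which aligner and counter were used is not given in the sources used here. Libraries were grouped by the labels. Where the treatment text and the sample characteristics differ on the days with doxycycline at d22 and d23, the characteristics were followed. Genes were kept if the number of libraries at 1 RPKM or more was no smaller than the smaller group's n, and were fitted as log2(RPKM + 1) with limma 3.58.1 in R 4.3.3 (lmFit, eBayes with trend), each comparison on its own libraries, with two-sided p adjusted by Benjamini-Hochberg over all genes tested and a threshold of 0.05. A log2(RPKM + 1) difference understates the change of low genes. The fits were tested on simulated data. The members and all lists were chosen with earlier results of these data known.

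The naming rule took 15 members and the 3 highest and 3 lowest members of each comparison. It also took the 2 highest and 2 lowest genes of each pathway list at d23. The 15 are given at least by their log2 difference for SC against SI at d23 and for SI d23 against d21. Elsewhere they are given through the counts and ranges of all 50. Other members are given by role, or because they were among few called or not called. Clones carry the same name at every time, so a clone is its own pair there. Correlations of same-clone deviations over genes were 0.168 to 0.922 apart from SI2 between d14 and d21, at -0.358. Alternatives were a pseudocount of 0.1, no filter, median-ratio rescaling, the replicate block, 1 fit of all 47 libraries and each library left out, and, chosen after seeing the data, leaving out clones SC2 and SI3 and leaving each clone out of the blocked fits. Depth could be read from the spacing of low values in 42 libraries. Promoter windows came from RefSeq GRCm38.p6. Figures used matplotlib 3.10.9.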

Additional observations from a re-analysis of the deposited data

Results flagged for a closer look

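Sample distances were looked at for the mean over the 50 members and the 15 always-named members in groups of 4, and 12 of 176 group values had 1 library far from the other 3. Chance flags about 1 in 20 such groups. All values here are log2(RPKM + 1). In iPS cells SC2 was far below the other clones in the mean over the 50 members (4.27, others 4.82 to 4.90), Cdk1 (4.55), Bub1 (4.34) and Cenpa (4.195). At d22 SI3 was far below the other SI clones in the mean over the 50 members (2.66, others 3.59 to 3.75), Plk1 (3.43), Aurkb (2.14), Ndc80 (2.13) and Cenpa (2.45). Birc5 was low in SI1 at d21 (3.68) and high in SI3 at d27 (4.27), and Ncapg was low in SC4 at d14 (2.45).

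The change from d21 to d23 differed between the classes for 47 members when clones were taken as a block, and for 0 without the block. In the blocked fit 12.4% of all genes tested were called higher in SC and 10.8% lower. The blocked count was 0 without SC1, SC3, SC4, SI1, SI2 or SI4.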

How the results depend on the processing

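No named member that was called changed sign, but uncalled ones and medians near 0 did. Without SC2 at d23 the SC d23 minus d21 median went from -0.28 to 0.11, without SC2 iPS cells the iPS minus d27 median went from -0.03 to 0.13, and without SI1 the SC minus SI median at d14 went from -0.18 to 0.07. For iPS cells against d27, 3 members were called higher without SC2 iPS cells and 4 lower without SC4 at d27. The replicate block changed the count of members called from 13 to 39 for SC d22 against d21, from 0 to 4 for SC d27 against d21, from 0 to 1 for SC iPS cells against SC d27, from 1 to 0 for SI d23 against feeders and from 0 to 47 for the class difference in the d23 change. It moved no other count by over 1.5 times, and SC d21 against d14 had 49. In the blocked fits 20.4% of all genes tested were called lower for SC d22 and 7.14% for SC d27 against d21. Called higher were 4.21% for iPS cells against d27, 1.46% for SI d23 against feeders and 12.4% for the class difference. For SC d21 against d14 it was 24.8%. Between SC and SI clones, and against feeders, the numbers are only shared numbers. For SC d22 against d21, no filter gave 8, rescaling 8, all libraries in 1 fit 1 and leaving out SC2 0. Of all genes tested, 366 of 19547 were called lower with no filter, 504 of 11875 with rescaling and 948 of 11949 with all libraries. The count of 1 was below that last share. For SC d23 against d21, no filter, rescaling and leaving out SC2 each gave 0. The fit of all 47 libraries, which has no term for clone, gave 40 for the classes at d22 and 48 for the class difference in the d23 change. In it 16.7% and 8.01% of all genes tested were called higher in SC. For SI d21 against d14 it gave 6, near the share of all genes, of which 1172 of 11738 were called higher. No filter gave 0 for SI d23 against feeders, beside 2138 of 19167 genes tested called higher. Without clones SC2 and SI3 counts were 10 at d21, 42 at d22, 10 at d27, 2 for the d22 change and 49 for the d23 change between classes. Without SC2 the count was 1 for iPS cells against d27, and without SI3 it was 10 for SI d27 against d21 and 34 for SI d23 against feeders.

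With each library left out, counts between the classes ran from 0 to 0 at d14, 0 to 2 at d21, 0 to 38 at d22, 0 to 50 at d23 and 0 to 12 at d27. Within SC they ran from 48 to 49 (d21 against d14), 0 to 16 (d22), 0 to 1 (d23) and 0 to 0 (d27), and from 0 to 4 for iPS cells against d27. Within SI they ran from 0 to 1 (d21 against d14), 38 to 45 (d22), 50 to 50 (d23) and 0 to 14 (d27). Against feeders they were 50 to 50 for iPS cells and 0 to 34 for SI d23. For the class difference they were 0 to 0 for the d22 change and 0 to 49 for the d23 change. In the blocked fits without each clone they were 14 to 41 for SC d22 (14 without SC1, 23 without SC2, 21 without SC3) and 0 to 49 for the class difference in the d23 change. Fits with fewer libraries have less power. Counts moved both down and up in them, and the cause of these moves was not tested. The unblocked counts have no share of all genes beside them.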

Other observations

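Clones SC3 and SC4 lay both above SC1 and SC2 for 47 of 50 members at d23, 37 at d22, 29 at d27, 13 at d21 and 12 in iPS cells, and both below for 0, 5, 10, 14 and 0. Of all genes at 1 RPKM in the 4 libraries, 30.9% lay above at d23, 33.4% at d22, 34.4% at d27, 22.9% at d21 and 30.7% in iPS cells, and 34.1%, 38.3%, 36.8%, 26.8% and 17.9% lay below. At all 5 points 8 members lay above, Aurkb, Bub1, Top2a, Birc5, Cdca8, Kif20a, Pttg1 and Hmmr, and 0 lay below at all 5. The share of all genes above at all 5 points was not counted, so these 8 have no background. The split of SC3 and SC4 from SC1 and SC2 was noticed in the data and was not tested.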
